A study of Mus musculus with 12 samples.

Results

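Tcf7, Lef1, Satb1, Foxp1, Bach2, Klf2, Il7r, S1pr1 and St8sia6 are 9 genes that mark naive and resting T cells, and they were taken by name from a table of 52459 genes. All 9 had a row in the table and all 9 were among the 16218 genes with enough counts to test. RNA was sequenced from T cells sorted by flow cytometry, in 12 libraries that formed 6 groups of 2. γδ T cells came from wild-type (WT) mice fed the MCD or the control diet, and the other groups were CD4+ T cells of γδTCR-/- mice (knockout, KO) and of WT mice, each on the MCD and on the control diet. The MCD diet lacks methionine and choline and is used to bring on fatty liver disease with inflammation in mice. Feeding began at 7 weeks of age and lasted 6 weeks in all groups, and WT mice were C57BL/6. The γδTCR-/- mice lack the γδ T cell receptor, the labels do not state which gene was deleted, and all γδ libraries used here are from WT mice. The labels do not name a tissue and do not say whether replicates came from different animals, so the p-values reflect sample-to-sample spread that may be technical.

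Naive T cells circulate through blood and lymph nodes in a resting state that is actively maintained. TCF-1 (from Tcf7) and LEF-1 are related DNA-binding proteins that hold the naive and memory programme in place, SATB1 organises chromatin in developing and resting T cells, and FOXP1 and BACH2 restrain the effector programme. KLF2 drives genes of recirculation, among them S1pr1, the receptor by which T cells leave lymph nodes, while Il7r encodes the α chain of the receptor for the survival cytokine interleukin-7. St8sia6 encodes an enzyme that attaches sialic acid to sialic acid on glycoproteins. On activation most of these genes are turned down in T cells.

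In GENCODE vM21 on GRCm38 all 9 are protein-coding genes, spread over 8 chromosomes. Satb1 lies at chr17:51736187-51833290 on the minus strand, Lef1 at chr3:131110471-131224356 on the plus strand, Tcf7 at chr11:52252371-52283014 on the minus strand and St8sia6 at chr2:13651021-13794064 on the minus strand. Il7r, Klf2 and S1pr1 overlap no other annotated gene. The other 6 do: Satb1 contains 5 unclassified transcripts on its own strand with at most 3654 counts in a library, and Tcf7 has an antisense transcript, A630014C17Rik, with at most 903. How the counting used strand is not given in the sources used here, so reads in these overlaps are of uncertain origin. The promoter windows of Satb1 and Lef1, the 250 bases before the most upstream RefSeq start (GRCm38.p6, written 5′ to 3′ on the gene's strand), are shown because, of the transcription factors, these 2 differed most between diets in KO CD4+ T cells. Satb1 covers chr17:51833291-51833540 and Lef1 chr3:131110047-131110296, and capitals mark matches to any of the 5 motifs searched.
Satb1: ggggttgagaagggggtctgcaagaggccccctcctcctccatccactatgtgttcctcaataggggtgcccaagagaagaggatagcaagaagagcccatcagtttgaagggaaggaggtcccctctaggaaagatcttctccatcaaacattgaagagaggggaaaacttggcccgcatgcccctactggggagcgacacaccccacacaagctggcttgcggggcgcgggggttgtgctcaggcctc
Lef1: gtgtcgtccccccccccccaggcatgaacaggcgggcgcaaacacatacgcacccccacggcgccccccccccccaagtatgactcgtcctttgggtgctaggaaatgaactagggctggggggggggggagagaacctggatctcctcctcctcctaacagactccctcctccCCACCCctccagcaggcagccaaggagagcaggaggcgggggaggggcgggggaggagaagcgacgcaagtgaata
The motifs, read on both strands, were CTTTGA of TCF and LEF factors, GTAAACA of FOXO factors, TGTGGT of RUNX factors, CCGGAAG of ETS factors and CCACCC of KLF factors. The only capitals are the single CCACCC in the Lef1 window, and the Satb1 window held none of the 5. Of the 8 members with a RefSeq window, CTTTGA was present in Bach2 and St8sia6, against 14.1% of 27025 promoter windows in all, and CCACCC in Lef1, Foxp1 and Klf2, against 27.6%. CCGGAAG was present in Bach2, against 7.10% of all windows, and GTAAACA and TGTGGT were in none of the 8, against 3.10% and 14.2%. The Tcf7 window, which held none of the 5, may contain transcribed sequence of a longer form. The windows of Bach2, Foxp1, Il7r and St8sia6 lie inside the GENCODE gene, and that of Klf2 runs into it. For Bach2 the window is chr4:32417185-32417434 in a plus-strand gene that starts at 32238804. Matches in these windows may thus lie downstream of another start of the gene. A match is only a run of letters, and its absence from this window says nothing about the factor.

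Total counts per library ran from 17035638 to 23203603, of which 40.8% to 56.8% were mitochondrial. Trdc, the δ-chain constant gene, read 538 to 733 CPM in γδ and 0.231 to 7.93 CPM in CD4+ libraries, and Cd4 read 0.975 to 4.29 CPM in γδ and 632 to 1448 CPM in CD4+ libraries. CPM are counts adjusted for library size, with TMM scaling between libraries. The γδ libraries of the MCD diet stood apart, with 8989 (replicate 2) and 10125 (replicate 4) genes at 10 or more counts, against 11903 to 13402 in the other 10. The label of replicate 2 carries more than 1 number (D2-D1), so the replicate number is a reading of it, and whether the library pools animals is not given in the sources used here. Macrophage markers, 11 genes, summed to 905 to 2066 CPM in γδ and 13.7 to 58.6 CPM in CD4+ libraries. Sinusoidal endothelium markers, 13 genes, summed to 50.8 and 46.8 CPM in γδ MCD and 680 and 1272 CPM in γδ control libraries, with Kdr and Oit3 at 0 in both γδ MCD libraries, and to 7.98 to 74.1 CPM in CD4+ libraries. In bulk libraries, fewer cells that express a gene and less of its RNA per cell cannot be told apart.

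Per unit of length, Il7r and Tcf7 were the most abundant of the 9 genes in every group and St8sia6 was last in 4 of the 6. On the authors' FPKM scale (fragments per unit of gene length and depth, with the authors' own scaling between libraries), the mean level of Il7r was highest in γδ MCD (311) and lowest in WT control CD4+ T cells (136), and that of Tcf7 was lowest in γδ MCD (105) and highest in KO control CD4+ T cells (345). In WT control CD4+ T cells the mean levels were 54.8 FPKM for Satb1, 42.1 for S1pr1, 30.6 for Lef1, 19.2 for Foxp1, 18.0 for Klf2, 17.4 for Bach2 and 14.5 for St8sia6. St8sia6 averaged 1.02 FPKM in γδ MCD and 0.28 FPKM in γδ control T cells, at percentiles 45 and 23.9 of tested genes in those cells, whereas in every CD4+ group all 9 genes lay at or above percentile 88.2.

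Ordered by mean CPM, the KO control group was the highest of the 6 for every gene but Il7r. Its gap to the next group exceeded the summed SDs of both for Tcf7, Lef1, Satb1, Foxp1, S1pr1, Bach2 and St8sia6, and did not for Klf2, where KO MCD came next (85.6 ± 28.2 against 94.5 ± 15.8 CPM, SD, n = 2 each). The γδ groups were the 2 lowest for Tcf7, Lef1, Satb1, Klf2, S1pr1, Bach2 and St8sia6. For Il7r the order began with γδ MCD at 998 ± 145 CPM and ended with WT control CD4+ T cells at 460 ± 67.1 CPM, and neither was apart from its neighbour, WT MCD CD4+ (756 ± 288 CPM) and γδ control (549 ± 74.1 CPM), beyond their spread.

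**Figure D1:**
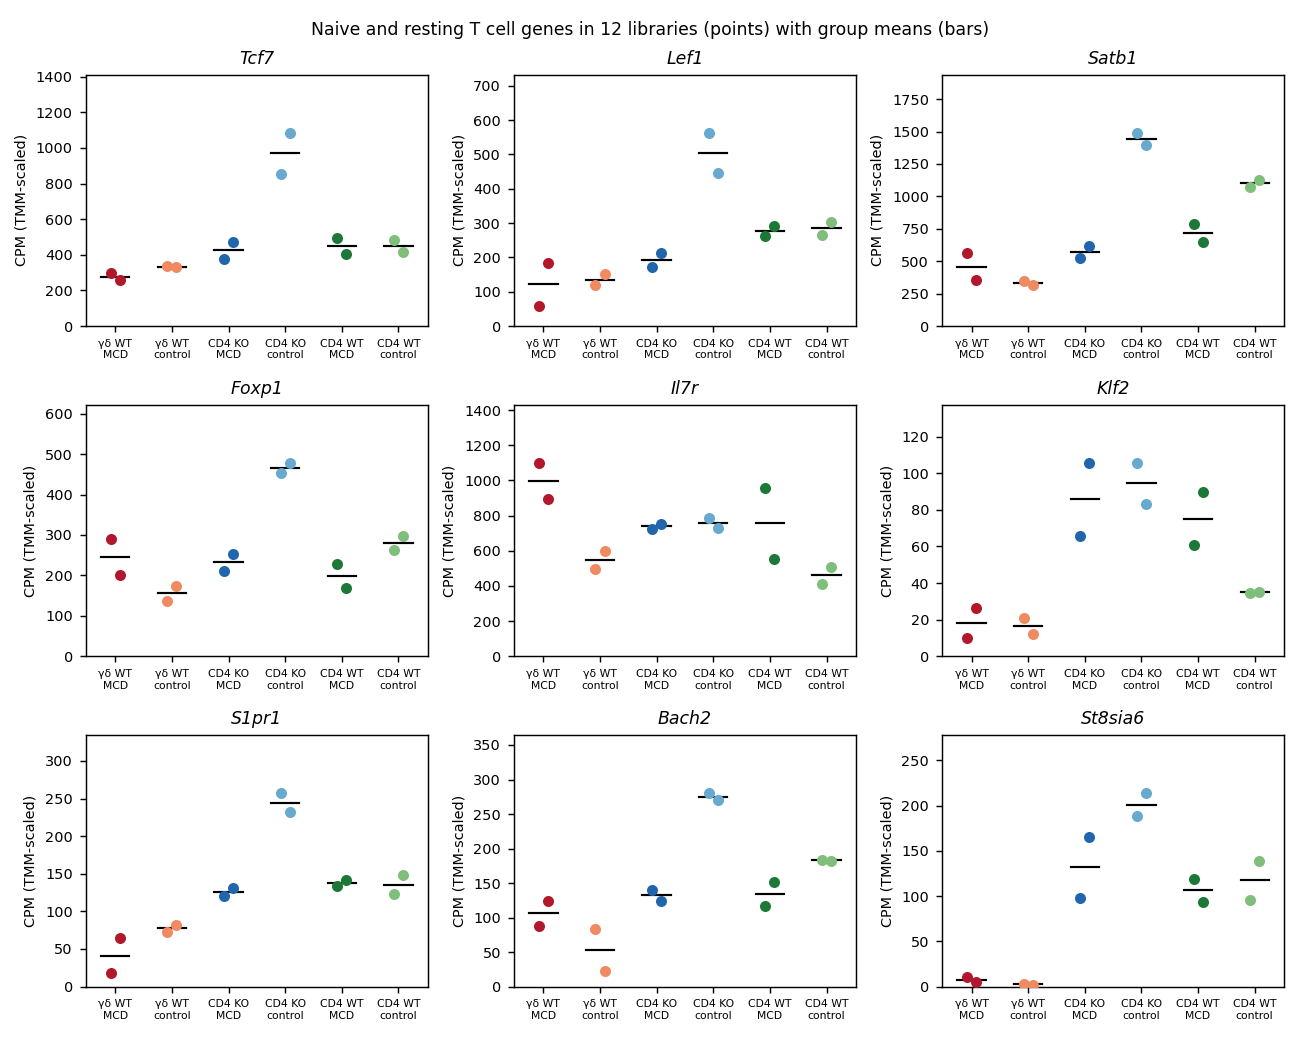
CPM (TMM-scaled, linear axes from 0) of the 9 genes in the 12 libraries, with a point per library and a bar at each group's mean; γδ T cells are red and orange, KO CD4+ T cells dark and light blue, WT CD4+ T cells dark and light green, with MCD left of control. KO control CD4+ T cells have the highest mean of all 6 groups in 8 of the 9 genes, Il7r being the exception, and St8sia6 is at most 10.6 CPM in the 4 γδ libraries.

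Between γδ and WT CD4+ T cells on the control diet, St8sia6 and Satb1 fell and no member rose, while 0.654% of the 16218 tested genes were called in either direction and 0.203% were called lower (edgeR quasi-likelihood test, adjusted p under 0.05). St8sia6 read 3.36 and 1.25 CPM in γδ control libraries, from 66 and 23 counts, against 95.6 and 139 CPM in WT control CD4+ libraries. Its mean was 51.0-fold lower in γδ T cells (log2 fold change -5.61 ± 0.62 SE, adjusted p = 0.00114 by edgeR). Satb1, the chromatin organiser, read 350 and 319 CPM in γδ against 1073 and 1130 CPM in CD4+ libraries, 3.29-fold lower (-1.72 ± 0.24, adjusted p = 0.00333 by edgeR). Neither gene's libraries overlapped between the cell types, and both calls held in all 21 other settings, with log2 fold changes of -6.45 (without γδ control replicate 6) to -3.58 for St8sia6 and -2.29 to -1.66 for Satb1. Macrophage and endothelial markers moved with cell type as given above, and their part in these differences was not tested.

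The other transcription factors read lower in γδ control T cells without passing. Bach2, the repressor of effector genes, had 82.9 and 22.6 CPM in γδ against 183 and 183 CPM in CD4+ libraries (log2 fold change -1.79 ± 0.49, adjusted p = 0.165 by edgeR). The γδ replicates differ more from each other than the CD4+ ones. The value was -3.02 without γδ control replicate 6 and -1.14 without replicate 7, each leaving a single γδ control library. Bach2 passed with DESeq2 (adjusted p = 0.0166) and without a filter (0.00457 by edgeR). Lef1 had 120 and 151 CPM in γδ against 265 and 303 CPM in CD4+ libraries (-1.07 ± 0.41, adjusted p = 0.388). Bach2 and Lef1 also passed without γδ MCD replicate 2 or 4, libraries outside this comparison. With either omission the number of all genes called rose too. Foxp1 (-0.84 ± 0.29), Klf2 (-1.08 ± 0.57) and Tcf7 (-0.43 ± 0.24) had adjusted p-values of 0.31 to 0.5, and Foxp1 passed under scaling by total counts (-1.43, 0.0271). Of the receptors, S1pr1 read 72.7 and 82.4 CPM in γδ against 123 and 148 CPM in CD4+ libraries (-0.80 ± 0.47, adjusted p = 0.514). Il7r read 496 and 601 CPM in γδ against 413 and 508 CPM in CD4+ libraries, with overlap (0.25 ± 0.26, adjusted p = 0.751), and its sign turned to -0.33 when libraries were scaled by total counts alone. In all, 8 of the 9 genes were lower without overlap, as were 25.8% of all tested genes, and the median log2 fold change was -1.07 over the 9 and -0.06 over all tested genes.

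On the MCD diet St8sia6 was the only member called, lower in γδ than in WT CD4+ T cells, where 2.65% of all tested genes were called and 1.18% were called lower. It read 10.6 and 4.90 CPM in γδ MCD libraries, from 129 and 73 counts, against 119 and 94.0 CPM in WT MCD CD4+ libraries, a mean 13.7-fold lower (log2 fold change -3.76 ± 0.57, adjusted p = 0.00551 by edgeR). All 4 γδ libraries of both diets lie below all 8 CD4+ libraries. The call on the MCD diet held in 20 of 21 other settings and was lost with only the groups compared in the fit (-3.76, adjusted p = 0.16). Without γδ MCD replicate 2 its value was -4.44. Under scaling by total counts 5 more members passed, all lower: Tcf7 (-1.50, adjusted p = 0.0079 by edgeR), Satb1 (-1.46, 0.00504), Lef1 (-1.93, 0.0291), S1pr1 (-2.48, 0.0202) and Klf2 (-2.80, 0.0249). That scaling moved the median of all genes by -0.67, and 634 of the 748 genes it called were lower.

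The recirculation genes came next on the MCD diet. S1pr1, the exit receptor, read 17.8 and 64.2 CPM in γδ against 134 and 141 CPM in CD4+ libraries (-1.74 ± 0.48, adjusted p = 0.0711 by edgeR), and Klf2 read 9.82 and 26.4 against 60.7 and 89.5 CPM (-2.05 ± 0.58, adjusted p = 0.0795). In both genes γδ MCD replicate 2, the library with the fewest detected genes, was the lowest of all 12. Lef1 was at -1.19 (adjusted p = 0.131 by edgeR). Without γδ MCD replicate 4 the values were -2.95 for S1pr1, -2.93 for Klf2 and -2.23 for Lef1. Without replicate 2 they were -1.12 for S1pr1, -1.53 for Klf2 and -0.62 for Lef1. Either omission leaves a single γδ MCD library, so only the sizes are given. Across settings S1pr1 passed in 8 and Klf2 in 6 of 21, of which 3 and 1 left out a library. Satb1 read 561 and 358 CPM in γδ against 789 and 646 CPM in CD4+ libraries (-0.64 ± 0.23, adjusted p = 0.145 by edgeR), and without γδ MCD replicate 2 its value was -1.02. Tcf7 had a log2 fold change of -0.70 and Bach2 of -0.34, while Foxp1 at 0.30 and Il7r at 0.40 were on the other side, turning to -0.50 and -0.39 under scaling by total counts. Without overlap, 6 of the 9 genes and 32% of all tested genes were lower, and the medians were -0.70 and -0.30. The share of all called genes that were higher in γδ T cells was 68.9% on the control and 55.6% on the MCD diet, and 36.3% and 15.2% under scaling by total counts, which moved the median of all genes by -0.53 and -0.67.

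**Figure D2:**
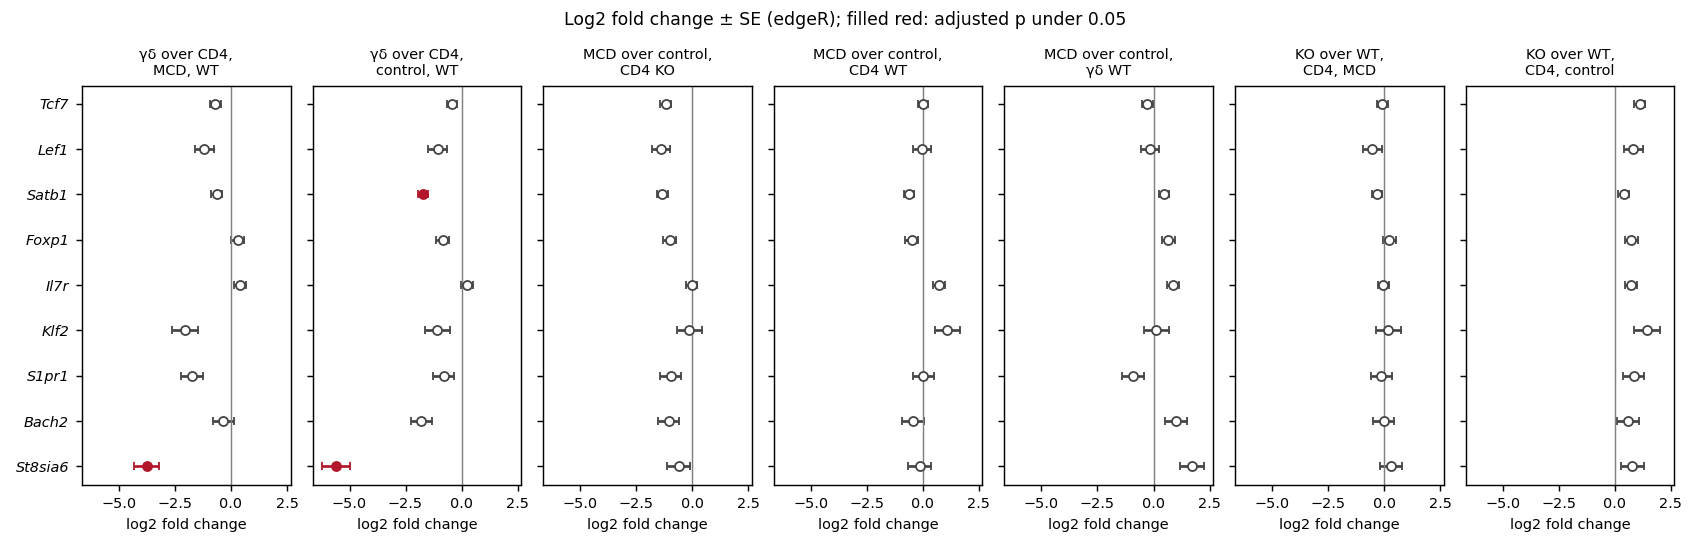
Log2 fold change ± SE (edgeR, 12 libraries in one fit) of the 9 genes in 7 comparisons on a shared linear axis; the group named first in each panel title is on top of the ratio and filled red points passed at an adjusted p under 0.05. The red points are St8sia6 in both panels of γδ over CD4+ T cells and Satb1 in the control-diet panel, while all 9 points lie left of 0 for MCD over control in KO CD4+ T cells (scaling by total counts alone moves Il7r and Klf2 to the right) and right of 0 for KO over WT on the control diet.

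In KO CD4+ T cells all 9 genes read lower on the MCD than on the control diet (7 of 9 under scaling by total counts, where Il7r and Klf2 turned), as did 47.1% of all tested genes, and none passed (edgeR called 0.00617% of all tested genes lower and 0.037% in either direction). Tcf7 read 379 and 473 CPM in KO MCD against 855 and 1086 CPM in KO control libraries, 2.28-fold lower (log2 fold change -1.19 ± 0.24, adjusted p = 0.137 by edgeR). Lef1 read 173 and 212 CPM against 563 and 447 CPM, 2.63-fold lower (-1.39 ± 0.41, adjusted p = 0.489). Satb1 read 526 and 617 CPM in KO MCD against 1492 and 1393 CPM in KO control libraries, 2.52-fold lower (-1.34 ± 0.24, adjusted p = 0.0909). In all 3 the groups are wide apart, and both MCD libraries lie far below both control libraries.

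Foxp1 read 212 and 254 CPM in KO MCD against 454 and 478 CPM in KO control libraries (-1.0 ± 0.29, adjusted p = 0.452 by edgeR). Bach2 read 140 and 124 against 280 and 270 CPM (-1.06 ± 0.48) and S1pr1 120 and 131 against 257 and 232 CPM (-0.96 ± 0.47), both with adjusted p = 0.787. St8sia6 read 97.7 and 166 against 188 and 214 CPM (-0.61 ± 0.51, adjusted p = 0.885). Il7r and Klf2 had values near 0. Il7r read 724 and 754 CPM in KO MCD against 784 and 727 CPM in KO control libraries (-0.03 ± 0.26), and Klf2 65.7 and 106 against 106 and 83.3 CPM (-0.14 ± 0.56). Both overlap between the diets, and scaling by total counts turned them to 0.27 and 0.17. Groups did not overlap in 7 of the 9 genes, all lower, against 18.1% of all tested genes that were lower without overlap. Lower at an unadjusted p under 0.05 were 5 members, against 2.24% of all tested genes, and the median was -1.0 over the 9 and 0.03 over all tested genes.

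Whether Satb1, Tcf7 and Lef1 passed depended on the tool, the filter and the libraries in the fit. With all libraries and no filter all 3 passed, and with only the groups compared in the fit none did. Satb1 passed in 12 of 22 other settings, among them with any 1 of the 8 libraries of the other groups left out, and not with any 1 of the 4 KO libraries left out. Tcf7 passed in 6 settings, among them DESeq2 (-1.18, adjusted p = 0.00898) and leaving out γδ MCD replicate 2 or 4. Lef1 passed in 4, among them the same omissions. With DESeq2 and with each library of the other groups left out, the number of all genes called rose too. The KO control libraries also stood apart in other measures: 52.7% and 51.1% of their counts were mitochondrial, against 40.8% to 43.9% in the other 6 CD4+ libraries, and ribosomal protein genes took 2.22% and 2.62% of the remaining counts, against 1.16% to 1.70%. Without mitochondrial genes the log2 fold changes were -1.32 for Satb1, -1.17 for Tcf7 and -1.37 for Lef1. B cell markers, 9 genes, summed to 257 and 291 CPM in KO MCD against 534 and 662 CPM in KO control libraries, nearly all from Ighm (228 and 243 against 476 and 576 CPM), while Cd79a read at most 1.25 CPM in CD4+ libraries. The part of these measures in the result was not tested.

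KO control CD4+ T cells read higher than WT control CD4+ T cells in all 9 genes, as in 46.9% of all tested genes, and none passed (edgeR called 0.00617% of all tested genes higher and 0.0247% in either direction). This comparison and the diet comparison in KO CD4+ T cells share the KO control libraries. Tcf7 read 855 and 1086 CPM in KO against 484 and 414 CPM in WT control libraries, 2.16-fold higher (log2 fold change 1.11 ± 0.24, adjusted p = 0.4 by edgeR). Klf2 read 106 and 83.3 against 34.8 and 35.3 CPM, 2.69-fold higher (1.43 ± 0.57), and Il7r 784 and 727 against 413 and 508 CPM, 1.64-fold higher (0.72 ± 0.26). These 2 genes, whose diets overlapped in KO cells, did not overlap between the genotypes. S1pr1 (0.85 ± 0.47), Lef1 (0.83 ± 0.41), St8sia6 (0.78 ± 0.51), Foxp1 (0.74 ± 0.29), Bach2 (0.59 ± 0.47) and Satb1 (0.39 ± 0.23) followed, and all members but Tcf7 had an adjusted p of 1. Groups did not overlap in any of the 9, all higher, against 16.7% of all tested genes, and 4 members were higher at an unadjusted p under 0.05, against 1.23%. Tcf7 passed with DESeq2 (1.10, adjusted p = 0.0387), with limma-voom (1.11, 0.0337) and without γδ MCD replicate 2 or 4. In each of these the number of all genes called rose too. All 9 stayed above 0 in all 21 other settings, Satb1 at the least with 0.02 under scaling by total counts. That scaling lowered all 9 values, Tcf7 to 0.75, and moved the median of all genes by -0.34. Under it 1 member had an unadjusted p under 0.05 by edgeR, against 4 with TMM. The mitochondrial, ribosomal and Ighm values of the KO control libraries apply here too, with Ighm at 242 and 309 CPM in WT control libraries. CD8 and NK cell markers, 4 genes, summed to 9.60 and 15.1 CPM in KO against 66.3 and 72.4 CPM in WT control libraries, and endothelial markers to 35.0 and 7.98 against 74.1 and 56.2 CPM. The part of these measures was not tested.

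On the MCD diet no member passed between the genotypes (0% of all tested genes were called, 2.08% had an unadjusted p under 0.05, and no member did). Satb1 read 526 and 617 CPM in KO against 789 and 646 CPM in WT MCD libraries (-0.33 ± 0.23), Lef1 173 and 212 against 262 and 293 CPM (-0.53 ± 0.41), and S1pr1 120 and 131 against 134 and 141 CPM (-0.13 ± 0.47), without overlap. The other 6 overlapped, with log2 fold changes between -0.08 for Tcf7 and 0.30 for St8sia6. Non-overlap in 3 of 9 compares with 32.9% of all tested genes. Every adjusted p was 1, which does not show that the genotypes were equal.

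In WT CD4+ T cells no member passed between the diets, where 0% of all tested genes were called by edgeR and DESeq2 called 40 genes. An unadjusted p under 0.05 was found for 2 members, Satb1 and Il7r, and for 2.13% of all tested genes. Satb1 read 789 and 646 CPM on the MCD against 1073 and 1130 CPM on the control diet (-0.62 ± 0.23), in the same direction as in KO cells. Il7r read 959 and 553 CPM on the MCD against 413 and 508 CPM on the control diet (0.72 ± 0.26), and Klf2 60.7 and 89.5 against 34.8 and 35.3 CPM (1.10 ± 0.57). These 3 genes, with Foxp1 (-0.49 ± 0.29) and Bach2 (-0.44 ± 0.47), did not overlap between diets, 5 of 9 against 33.9% of all tested genes. Tcf7 (0.00 ± 0.24), Lef1 (-0.04 ± 0.41), S1pr1 (0.03 ± 0.47) and St8sia6 (-0.14 ± 0.51) had values near 0, and every adjusted p was 1. Averaged over both genotypes, Satb1 had the smallest p among the members (-0.98 ± 0.17, adjusted p = 0.0773 by edgeR, with 0% of all tested genes called lower and 0.037% in all). It passed in 9 of 21 other settings, among them DESeq2 (adjusted p = 0.004). It also passed on leaving out γδ control replicate 6 or 7, WT MCD replicate 1, or γδ MCD replicate 2 or 4. In each of these the number of all genes called rose too.

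In γδ T cells no member passed between the diets either (0% of all tested genes by edgeR, 2105 genes by DESeq2). An unadjusted p under 0.05 was found for 3 members, Il7r, St8sia6 and Foxp1, and for 17.5% of all tested genes. Il7r read 1100 and 895 CPM on the MCD against 496 and 601 CPM on the control diet, 1.82-fold higher (0.86 ± 0.26, adjusted p = 0.15 by edgeR). St8sia6 read 10.6 and 4.90 against 3.36 and 1.25 CPM, 3.38-fold higher from a low level (1.71 ± 0.53, adjusted p = 0.158). DESeq2 called Il7r (0.96, adjusted p = 0.0459) and St8sia6 (1.86, 0.0159). Foxp1 (0.66 ± 0.29), Satb1 (0.46 ± 0.23) and Bach2 (1.01 ± 0.48) were above 0 and Tcf7 (-0.27 ± 0.24) and S1pr1 (-0.92 ± 0.47) below it, all 5 without overlap. Bach2 was 2.23 without γδ control replicate 6 and 0.36 without replicate 7. St8sia6 was 2.54 without γδ control replicate 6 and 1.06 without γδ MCD replicate 2, and these omissions gave no call. Lef1 (-0.16 ± 0.41) and Klf2 (0.13 ± 0.56) overlapped, since γδ MCD replicate 2 was below and replicate 4 above both control libraries in each. Non-overlap in 7 of 9 compares with 33.2% of all tested genes.

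The pair of γδ MCD libraries disagreed most on S1pr1, Lef1 and Klf2. Replicate 2 read 17.8 CPM of S1pr1 and replicate 4 read 64.2, and for Lef1 the values were 59.3 and 183 CPM. Without replicate 4, S1pr1 was -2.12, Lef1 -1.20, Satb1 0.74, Il7r 1.0 and St8sia6 2.16. Without replicate 2, S1pr1 was -0.26 and Lef1 turned to 0.44. Either omission leaves a single γδ MCD library, so only the sizes are given. Endothelial markers were lower in γδ MCD than in γδ control libraries, 11 of 11 tested genes, and their part in the values of the 9 genes was not tested.

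The difference between diet effects was tested too. Between KO and WT CD4+ T cells all 9 interaction values were below 0, between -1.36 for Lef1 and -0.47 for St8sia6, every adjusted p was 1, and 0% of all tested genes were called. Below 0 lay 48.1% of all tested genes. Tcf7 (-1.19 ± 0.34), Lef1 (-1.36 ± 0.58) and Satb1 (-0.72 ± 0.33) were under an unadjusted p of 0.05, as were 1.48% of all tested genes in this direction. Between γδ and WT CD4+ T cells again 0% of all tested genes were called, 3.47% were above 0 at an unadjusted p under 0.05, and Satb1 (1.08 ± 0.33, adjusted p = 0.36), Foxp1 (1.15 ± 0.41), Bach2 (1.45 ± 0.67) and St8sia6 (1.85 ± 0.72) were among them. Without γδ MCD replicate 4 the values were 1.36 for Satb1, 1.39 for Foxp1, -2.15 for S1pr1 and 2.29 for St8sia6. That omission leaves a single γδ MCD library, so only the sizes are given. No member passed this test in any setting that kept all libraries, DESeq2 among them.

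Across the 8 CD4+ libraries 7 of the 9 genes varied together, a set chosen after the values were seen that leaves out Il7r and Klf2. Pearson's r of log2(CPM + 1) over the 21 pairs of Tcf7, Lef1, Satb1, Foxp1, S1pr1, Bach2 and St8sia6 ran from 0.59 to 0.94 with a median of 0.85, the highest being Lef1 with S1pr1. These libraries share their groups, and without the 2 KO control libraries the median over the same pairs was 0.34, from -0.32 to 0.75 over 6 libraries. Il7r correlated at 0.64 with Klf2 and at -0.16 with Bach2. Among 8445 genes (those averaging 5 CPM or more in CD4+ libraries), the 3 with the highest r were Rps27, Cd27 and Rpsa for Tcf7 (0.982 to 0.986), Fli1, Leprotl1 and Gm37370 for Lef1 (0.966 to 0.977), and Atxn2, Fchsd2 and Spsb1 for Satb1 (0.958 to 0.972). Foxp1 was followed most closely by Rflnb, Ccr7 and Laptm5 (0.967 to 0.986), Bach2 by Cd47, Actb and Psmb2 (0.983 to 0.987), and S1pr1 by Itga6, Dock8 and Rplp0 (0.960 to 0.969). St8sia6 was closest to Cytip, Tatdn1 and Snap47 (0.941 to 0.952) and Klf2 to Gm37494, Arhgef4 and Psmd12 (0.924 to 0.953). For Il7r the nearest were mt-Nd6, Brwd3 and mt-Nd5 (0.931 to 0.940), of which mt-Nd6 and mt-Nd5 are mitochondrial transcripts. Without the 2 KO control libraries these r were 0.339 to 0.748 for the 3 genes of S1pr1, 0.687 for Rpsa with Tcf7, and 0.844 to 0.986 for the others. As the largest of 8445 values over 8 libraries, all of these r are high by selection.

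Most genes of the naive surface, homing and partner factor lists also read lower in KO CD4+ T cells on the MCD against the control diet, while the antiproliferative list was split. Of 15 naive surface and marker genes 13 read lower and 0 passed, with Treml2 at 19.5 against 72.6 CPM (adjusted p = 0.545 by edgeR) and Rflnb at 98.6 against 275 CPM (0.787). Of 8 genes of lymph node homing and egress 7 read lower and 0 passed: Ccr7, the homing chemokine receptor, averaged 74.6 against 239 CPM (adjusted p = 0.787 by edgeR), while the integrin Itga4 was on the other side, at 1188 against 685 CPM (0.364). Among 11 partner transcription factors 9 read lower and 0 passed, with Klf3 at 377 against 821 CPM (0.134). Of 10 antiproliferative and quiescence genes 6 read lower and 4 higher, and 0 passed. Of 22 activation and effector memory genes 19 read higher and 4 rose, where 0.0308% of all tested genes were called higher: Rgs1 averaged 486 CPM in KO MCD against 73.7 CPM in KO control libraries (adjusted p = 0.00667 by edgeR), the transcription factor Maf 265 against 40.3 CPM (0.0154), the chemokine Ccl5 147 against 28.7 CPM (0.0356) and Ahnak 1371 against 517 CPM (0.0356). Median log2 fold changes were -1.20 for the naive surface list, -0.94 for homing, -0.42 for partner factors, -0.23 for antiproliferative genes and 1.19 for activation genes, against 0.03 over all tested genes.

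On the control diet KO against WT CD4+ T cells gave the opposite counts, with the shared KO control libraries now on top. All 8 homing genes, 13 of 15 naive surface genes, 9 of 10 antiproliferative genes and 7 of 11 partner factors read higher, 18 of 22 activation genes read lower, and 0 genes of these lists passed. The antiproliferative genes were higher in 9 of 10 cases on the MCD diet as well. Cxcr4, a homing receptor, averaged 82.7 CPM in KO against 25 CPM in WT libraries, Klf3 821 against 500 CPM and Cxcr6, a tissue-residence receptor, 29.6 against 113 CPM (adjusted p = 0.658 by edgeR for Cxcr6 and 1 for the others).

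In γδ against WT CD4+ T cells the lists split. Als2cl, a naive surface list gene, fell on both diets (1.51 against 60.5 CPM on the control diet, adjusted p = 0.00333 by edgeR, and 1 count in each γδ library against a mean of 46.2 CPM on the MCD diet, 0.000359). On the MCD diet Igfbp4 fell too (2.63 against 43.9 CPM, 0.0153) while Sorl1 rose (979 against 404 CPM, 0.0204), and Cdkn1b, a cell cycle inhibitor, fell (32.3 against 136 CPM, 0.0423). Activation genes were higher in 21 of 22 cases on the control diet, where Ccl5, Zeb2 and Ahnak rose (0.45% of all tested genes were called higher), and in 19 of 22 on the MCD diet, where 5 rose (1.47%). In γδ T cells 10 of 10 tested macrophage markers were higher on the control diet and 8 of 10 on the MCD diet, and their part in these values was not tested. The relatives of the members held calls as well. St8sia1, another sialyltransferase gene, fell in γδ T cells on the control diet (9.50 against 131 CPM, adjusted p = 0.0363 by edgeR) and on the MCD diet (1.96 against 107 CPM, 0.00457). Foxp3, the factor of regulatory T cells and a relative of Foxp1, had 0 counts in both γδ control libraries, where a floor of 3 counts is 0.153 and 0.162 CPM, against a mean of 39.6 CPM in WT control CD4+ libraries (adjusted p = 0.00744), and a mean of 2.12 CPM from 1 and 62 counts against 57.3 CPM on the MCD diet (0.0466). St8sia4 read 232 CPM in γδ against 148 CPM in CD4+ control libraries (adjusted p = 0.463), on the other side from St8sia6 and St8sia1.

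The genes around Il7r, Tcf7 and S1pr1 gave no call in any of the 10 comparisons. This covers 12 genes of interleukin-7 signalling, 7 tested TCF and LEF partners and targets, and 8 tested genes of the sphingosine-1-phosphate pathway. Between 0% and 2.65% of all tested genes were called in a comparison, so the absence of calls in lists this small says little. In KO CD4+ T cells on the MCD against the control diet, Cish, which interleukin-7 and related cytokines induce, averaged 42.6 against 6.18 CPM (adjusted p = 0.642 by edgeR), and the kinase gene Jak1 571 against 968 CPM (0.384). In γδ against WT CD4+ T cells Bcl2, the survival gene, averaged 1169 against 737 CPM on the MCD diet (0.189) and 951 against 497 CPM on the control diet (0.212). S1pr4, a second S1P receptor gene, averaged 12.8 CPM in KO MCD against 46.6 CPM in KO control libraries (0.787).

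**Figure D3:**
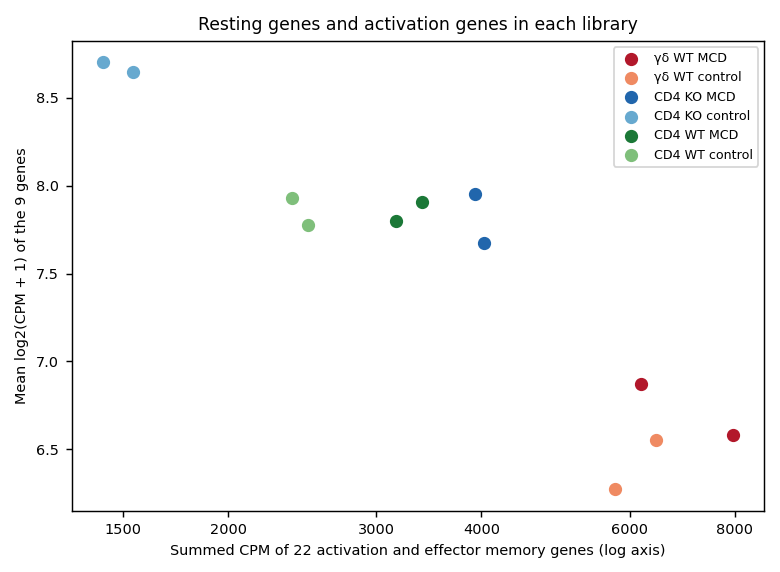
Mean log2(CPM + 1) of the 9 genes (vertical, linear) against the summed CPM of the 22 activation and effector memory genes (horizontal, log axis), with a point per library. The 4 γδ libraries lie at 6.27 to 6.87 and 5766 to 7961 CPM, and the 2 KO control libraries at 8.70 and 8.65 with 1420 and 1543 CPM, the highest mean beside the lowest sum.

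Set side by side per library, the KO control group combined the highest mean log2 level of the 9 genes with the lowest sum of the activation list, and the γδ groups the reverse. The mean of log2(CPM + 1) over the 9 genes was 6.58 and 6.87 in γδ MCD and 6.56 and 6.27 in γδ control libraries. It was 7.67 and 7.95 in KO MCD and 8.70 and 8.65 in KO control libraries, and 7.91 and 7.80 in WT MCD and 7.78 and 7.93 in WT control libraries. St8sia6, at most 10.6 CPM in γδ libraries, lowers their mean of logs. By summed CPM of the 9 genes the γδ libraries were also lowest, at 1620 to 2432. There γδ MCD replicate 2 (2432) was next to KO MCD replicate 1 (2437), so the distance depends on the summary used. The summed CPM of the activation list was 4032 and 3932 in KO MCD against 1420 and 1543 in KO control libraries, and 3398 and 3166 in WT MCD against 2487 and 2382 in WT control libraries. WT MCD and WT control libraries, which differ in the activation sum, overlap in the mean of the 9 genes.

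**Figure D4:**
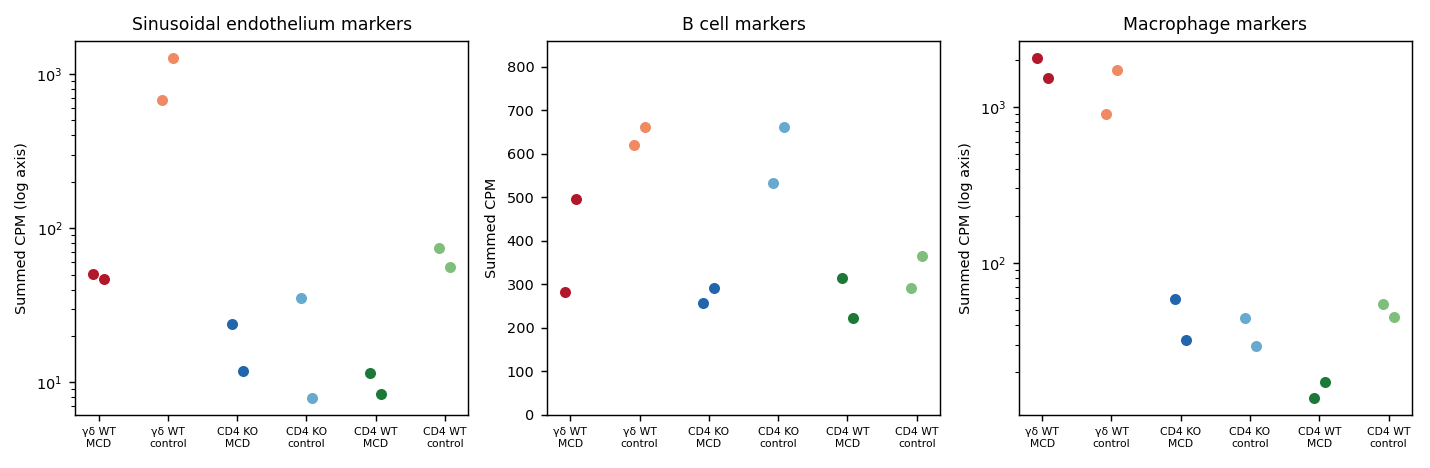
Summed CPM of markers of sinusoidal endothelium, B cells and macrophages (log axes for endothelium and macrophages, linear from 0 for B cells) in the 12 libraries, with a point per library and MCD left of control. Macrophage markers run from 905 to 2066 CPM in the 4 γδ libraries and from 13.7 to 58.6 CPM in the 8 CD4+ libraries, and the B cell sum is 534 and 662 CPM in KO control CD4+ libraries.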

How the data were processed

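RNA of γδ and CD4+ T cells was measured in 12 libraries, 6 groups of 2 taken from the labels. Per the submitters' processing notes, bcl2fastq, STAR, featureCounts and DESeq2 were used on mm10 (GRCm38); versions, annotation and strand are not given in the sources used here. The authors deposited raw counts per gene and FPKM. Value per read in the deposited FPKM followed DESeq2-type size factors, not totals, so FPKM served for levels between genes and as an alternative.

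The 9 genes, the lists around them and the comparisons were chosen with earlier results of these data known. All 9 genes are named. From each list up to 4 genes with the smallest unadjusted p were eligible, in comparisons described, and likeness took the 3 genes of highest r.

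Genes were kept by filterByExpr (minimum count 10, total 15). edgeR 4.0.16 (R 4.3.3) fitted all 12 libraries with a mean for each group (quasi-likelihood test, 2-sided, TMM, prior count 2), with Benjamini-Hochberg adjustment over all 16218 genes and a threshold of 0.05. The SE is the size of the log2 fold change divided by the root of F. Folds are ratios of mean CPM. Non-overlap means that both libraries of a group lie above both of the other.

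A count of 3, the floor used for genes at 0, is 0.13 to 0.248 CPM and covers counting error only. The alternatives tried were scaling by RLE or by total counts alone, no filter, DESeq2 1.42.0, voom in limma 3.58.1, no mitochondrial genes, log2(FPKM + 1) and log2(FPKM + 0.1), only the groups compared, a replicate block and leaving out each library.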

Additional observations from a re-analysis of the deposited data

Results flagged for a closer look

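In 6 cases a gene moved without overlap one way under a contrast in 1 setting and the other way in a second. Each was tested as an interaction in the edgeR fit, and none passed.

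By genotype, KO against WT CD4+ T cells, 3 genes read higher on the control diet and lower on the MCD diet. Lef1 had log2 fold changes of -0.53 on the MCD and 0.83 on the control diet (interaction -1.36 ± 0.58, adjusted p = 1). Satb1 had -0.33 and 0.39 (interaction -0.72 ± 0.33, adjusted p = 1), and S1pr1 had -0.13 and 0.85 (interaction -0.98 ± 0.66, adjusted p = 1).

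By diet, MCD against control, 3 genes read higher in γδ and lower in WT CD4+ T cells. Satb1 had 0.46 in γδ and -0.62 in CD4+ T cells (interaction 1.08 ± 0.33, adjusted p = 0.36). Foxp1 had 0.66 and -0.49 (interaction 1.15 ± 0.41, adjusted p = 0.415), and Bach2 had 1.01 and -0.44 (interaction 1.45 ± 0.67, adjusted p = 0.471). No group had 4 or more libraries, so single libraries could not be checked for distance from their group.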

How the results depend on the processing

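Of the log2 fold changes of the 9 genes over all alternatives, 1784 kept their sign and side of the threshold, 76 passed only under the alternative, 1 was lost and 38 changed sign. The causes were not tested. The lost one is St8sia6 in γδ against CD4+ T cells on the MCD diet, with only the groups compared in the fit (adjusted p = 0.16 by edgeR).

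The number of genes called depended strongly on the tool and filter. In γδ T cells by diet it was 0, and 2105 with DESeq2, 63 with voom, 555 without a filter, 3 with library-size scaling, 148 with log2(FPKM + 1) and 210 with log2(FPKM + 0.1). In WT CD4+ T cells by diet it was 0, and 40 with DESeq2 and 19 without a filter. In KO CD4+ T cells by diet it was 6, and 266 with DESeq2, 19 with voom, 105 without a filter, 10 with library-size scaling and 15 with log2(FPKM + 1). Averaged over genotypes it was 6, and 196 with DESeq2, 106 without a filter, 11 with log2(FPKM + 1), 1 with log2(FPKM + 0.1) and 54 with only the groups compared. KO against WT on the control diet gave 4, and 122 with DESeq2, 52 without a filter, 2 with log2(FPKM + 1) and 2 with only the groups compared. KO against WT on the MCD diet gave 0, and 39 with DESeq2, 11 without a filter and 5 with log2(FPKM + 1). γδ against CD4+ on the control diet gave 106, and 917 with DESeq2, 244 with voom, 354 without a filter, 287 with log2(FPKM + 1) and 282 with log2(FPKM + 0.1). On the MCD diet it gave 430, and 748 with library-size scaling, 2887 with DESeq2, 787 with voom, 1071 without a filter, 659 with log2(FPKM + 1), 932 with log2(FPKM + 0.1) and 9 with only the groups compared. The genotype interaction gave 0, and 71 with DESeq2, 1 with voom, 44 without a filter and 1 with only the groups compared. The cell type interaction gave 0, and 645 with DESeq2, 113 without a filter and 3 with log2(FPKM + 0.1).

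Leaving out 1 library at a time gave 21 to 1683 genes for γδ diet, 0 to 1 for WT diet, 6 to 136 for KO diet, 4 to 96 for the average, 7 to 27 and 0 to 1 for genotype on the control and MCD diets, 69 to 504 and 108 to 2386 for cell type on the control and MCD diets, and 0 to 21 and 0 to 733 for the genotype and cell type interactions.

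Whether the replicate numbers shared by the KO groups pair the samples is not given in the sources used here. The correlation of deviations was -0.00108 over 13145 genes, and with 2 libraries a group this single value cannot decide it. The replicate block was fitted to the KO libraries alone. With it, 80 genes were called by diet in KO CD4+ T cells, among them Satb1 (-1.36, adjusted p = 0.00351 by edgeR), Tcf7 (-1.21, 0.0105) and Lef1 (-1.41, 0.016). Without the block the same libraries gave 6 genes. The block leaves even less of these few libraries from which to estimate the spread, and whether its added calls are sound was not tested.

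Some signs changed. With library-size scaling these were Klf2 by diet in γδ (-0.054) and in KO CD4+ T cells (0.17), Il7r by diet in KO CD4+ T cells (0.27) and in the cell type interaction (-0.066), Il7r in γδ against CD4+ on the control (-0.33) and MCD diet (-0.39), and Foxp1 on the MCD diet (-0.50). Tcf7 in WT CD4+ T cells by diet was -9e-04 with voom and -6e-04 with only the groups compared, and Il7r by genotype on the MCD diet was 0.039 with voom.

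Leaving out 1 library gave values on both sides of 0, by diet in γδ T cells, for Lef1 (-1.20 to 0.44) and Klf2 (-0.75 to 0.68). By diet in WT CD4+ T cells this held for Tcf7 (-0.15 to 0.15), Lef1 (-0.13 to 0.065), S1pr1 (-0.10 to 0.17) and St8sia6 (-0.38 to 0.16), and in KO CD4+ T cells for Klf2 (-0.52 to 0.16). By genotype on the MCD diet it held for Tcf7 (-0.25 to 0.075), Il7r (-0.38 to 0.42), Klf2 (-0.20 to 0.49), Bach2 (-0.20 to 0.17) and St8sia6 (-0.13 to 0.63). It also held for Foxp1 in γδ against CD4+ on the MCD diet (-0.01 to 0.54), and in the cell type interaction for Lef1 (-1.16 to 0.46) and Il7r (-0.20 to 0.60). With 2 libraries a group, small differences were not detectable.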
